A study of Bombyx mori with 12 samples.

Results

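Ovaries of WT silkworm pupae (Bombyx mori, the domestic silk moth) were compared between the pupal stages P2 and P4, which gives the normal progress of the pupal ovary between these stages. Of the 15745 genes listed, 4372 were compared, namely those that reached 1 in at least 3 of the 6 WT samples (27.8% of the listed genes). The series also holds ovaries of a line given as TBH, a genetic model of raised hemolymph protein whose name the labels do not spell out, and both lines were sampled at P2 and P4. No treatment is named for any group, and the labels do not describe the WT strain further. Each of the 4 groups had 3 samples, and the labels state 5 female pupae and n = 3. The labels do not say whether a sample pools several pupae, so p-values here reflect only how much these samples vary, which may be technical. Deposited values are a normalized signal whose unit is not named, and they are written below without a unit.

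As background, a silkworm ovary consists of tubes, the ovarioles, in which each oocyte sits with its nurse cells inside a layer of follicle cells. The oocyte is filled with yolk proteins, most of them made by the fat body and carried in the hemolymph, and the follicle cells then secrete the vitelline membrane and the chorion of the eggshell. A muscular sheath and tracheae surround the ovarioles, so ovary RNA also holds RNA of these tissues. In such bulk RNA, fewer cells of a type and less RNA per cell cannot be told apart.

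The listed values of the 12 samples summed to between 468558.9 and 664133.6. The 3 WT P4 samples resembled each other closely, with Pearson correlations of the log2 values across genes of 0.93 to 0.934. The 3 WT P2 samples correlated less, at 0.835 to 0.896. P2 replicates 1 and 3 stood at 0.896, above every pair of a P2 with a P4 sample (0.838 to 0.863). P2 replicate 2 correlated with replicates 1 and 3 at 0.856 and 0.835, about as much as P2 samples did with P4 samples. Genes above 0 numbered 7772, 6399 and 7180 in WT P2 replicates 1, 2 and 3 and 6659, 6530 and 6693 at P4. Of the markers of ovarian cells, VMP23, a vitelline membrane protein of the follicle cells, was present in all 6 WT samples. The vitelline membrane protein VMP25 stayed at or below 0.28, VMP90 at or below 0.12 and the chorion protein 5H4 at or below 0.62. The germ line genes NANOSO and SIWI, and AGO1, an Argonaute of the small RNA pathway, were listed at 0 in all 12 samples. In this table an exact 0 may be a failed estimate, and 917 of the 4372 genes compared were at 0 in at least 1 WT sample. RPL9, a ribosomal protein gene, was listed at 0, 98.9 and 39.1 in the P2 samples and at 72.4, 0 and 107 in the P4 samples. Genes of the gut list stayed at or below 0.62 and the silk proteins fibroin heavy chain and FIBL at or below 1.34 in WT, while hemocytin, a hemocyte gene, was at 0 in all 12 samples.

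**Figure D1:**
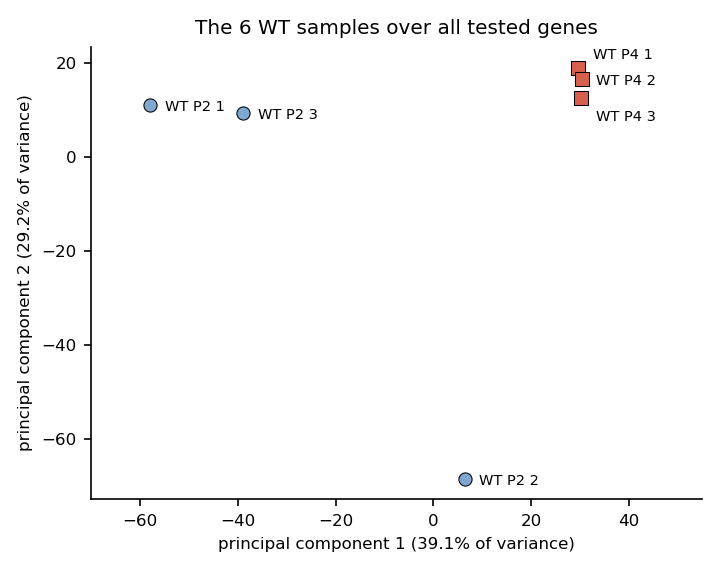
Principal components of the log2 values of the 4372 genes in the 6 WT samples, with component 1 on the x axis and component 2 on the y axis and the share of the variance on each axis label. The 3 P4 samples lie together, between 29.68 and 30.42 on component 1, while P2 replicate 1 lies at -57.87, replicate 3 at -38.9 and replicate 2 at 6.43, with replicate 2 also apart on component 2 at -68.47.

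Between P2 and P4, 71 genes rose and 206 fell in WT (limma, adjusted p under 0.05), which is 1.62% and 4.71% of the genes compared. An informative name was available for 14 of the genes that rose and 57 of those that fell. All 3 P4 samples lay above all 3 P2 samples for 214 genes (4.89%) and below them for 1060 genes (24.2%). Of the 277 called genes, 276 had no overlap between the stages. At an unadjusted p under 0.05 stood 1099 genes.

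The median log2 change over all genes was -0.445, and 3270 of the 4372 genes had a lower mean log2 value at P4. The median log2 value of the tested genes was 4.06, 3.04 and 3.53 in the P2 samples and 2.96, 3.13 and 3.10 in the P4 samples. P2 replicates 1 and 3 were above all P4 samples, while P2 replicate 2 lay within their range. The shift was not the same at every level of expression. Genes with a mean below 10 had a median log2 change of -0.34, those of 10 to 100 had -0.58, those of 100 to 1000 had -0.45, and the 93 genes with a mean of at least 1000 had 0.14. Log2 changes of single genes and lists are therefore given below relative to the median of all genes, as "relative log2 change" with the standard error of the model, whereas folds are ratios of group means without that correction. The adjusted p-values test the log2 change before this correction, and the adjusted p with equal medians is added where it ends a call. When the samples were scaled to equal medians, 109 genes rose (2.49%) and 79 fell (1.81%), and with quantile normalization 129 rose and 109 fell. For the list counts with equal medians below, 2.49% and 1.81% are the shares over all genes. The direction of the split therefore depended on the scaling, while 65 of the 71 rises and 77 of the 206 falls were still called with equal medians. The counts also depended on single samples. Without P2 replicate 2, 102 genes rose and 477 fell, and without P2 replicate 3, 308 fell. Without P2 replicate 1 the counts were 57 and 112, and without P4 replicate 1, 2 or 3 they were 45 and 108, 36 and 96, and 42 and 102. A fit without both P2 replicates 1 and 2 leaves only P2 replicate 3 in its group, so its counts are not given.

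**Figure D2:**
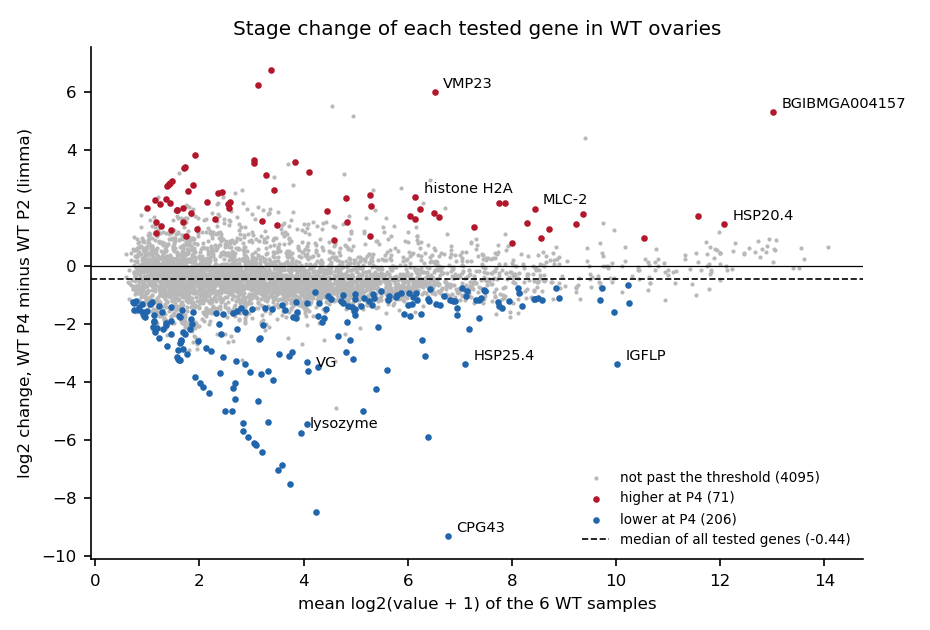
Log2 change between P4 and P2 in WT (y axis) against the mean log2 value of the 6 WT samples (x axis), with 1 point for each of the 4372 genes, called genes coloured and the median change of -0.445 drawn as a line. The 71 rises include VMP23 and BGIBMGA004157 near the top, and the 206 falls include CPG43 and the neuropeptide-like 4 genes at the bottom.

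The largest named rise with values in both stages was that of an eggshell gene. VMP23 (BGIBMGA006755) stood at 9.69, 13.35 and 8.99 in the P2 samples and at 534, 1210.4 and 608 in the P4 samples. All P4 samples were far above all P2 samples, and P4 replicate 2 was the highest. The mean was 73.5-fold higher at P4, with a relative log2 change of 6.44 ± 0.33 (SE, limma adjusted p = 1.1e-06). Of the 6 genes in the eggshell list, 3 could be tested and VMP23 was the 1 that passed, against 1.62% of all genes rising. The other tested members were transcription factors of chorion genes. CBZ, a chorion b-ZIP factor, had values of 15.8, 0 and 10.6 at P2 and 0.03, 0.51 and 2.72 at P4 (limma adjusted p = 0.28), and the P2 sample listed at 0 overlapped the P4 samples. The chorion-specific C/EBP had an adjusted p of 0.84. The 1 chorion protein gene of the list, 5H4, was not tested because of its low values, given above. The eggshell list held 0.00647%, 0.00205% and 0.00518% of the listed total at P2 and 0.097%, 0.2% and 0.103% at P4, with no overlap (two-sided exact permutation p = 0.1, the smallest that 3 against 3 samples allow, and 0.156 after adjustment over the 14 shares compared).

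A gene that the table does not name took up more of the listed total than any other gene at P4. BGIBMGA004157 stood at 974, 1052 and 2193 at P2 and at 41444, 74091 and 46708 at P4. The lowest P4 sample was far above the highest P2 sample. Its mean was 38.5-fold higher at P4 and its relative log2 change was 5.76 ± 0.35 (limma adjusted p = 4.5e-06). It made up 0.202%, 0.158% and 0.468% of the listed total at P2 and 7.44%, 12.2% and 7.86% at P4 (exact permutation p = 0.1). The 10 highest genes of a sample together held 13.86%, 22.35% and 19.12% at P2 and 26.37%, 31.22% and 29.26% at P4. The part of this gene's share in the downward shift of the other genes was not tested. A further unnamed gene, BGIBMGA014404, was listed at 0 in all P2 samples and at 117, 93.2 and 112 at P4 (limma adjusted p = 0.001).

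**Figure D3:**
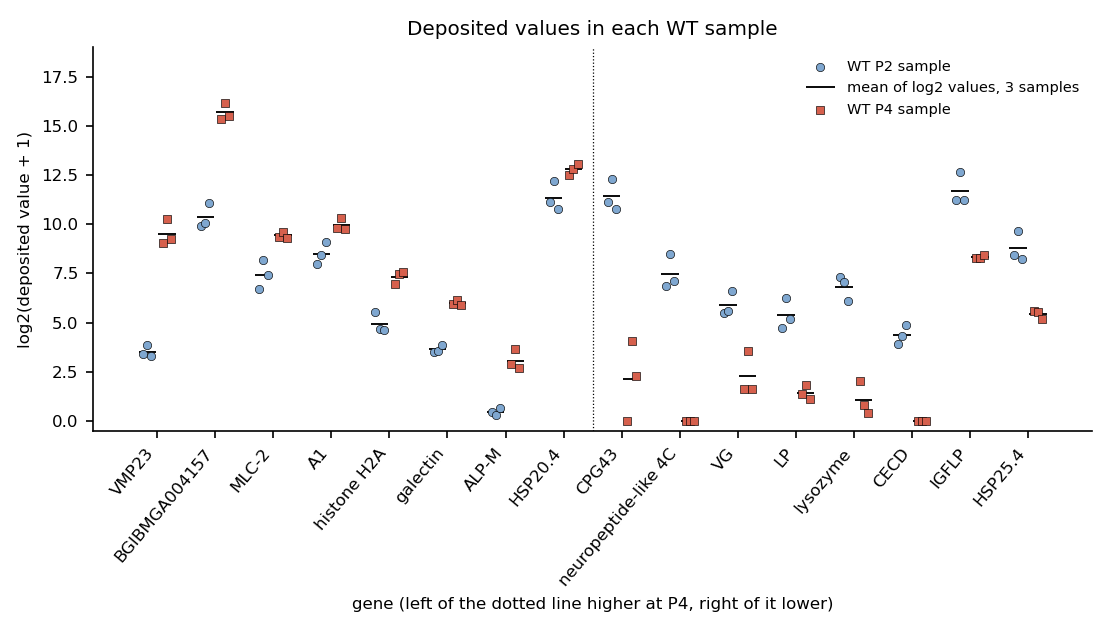
Values of 16 genes (x axis) in each of the 6 WT samples on a log2(value + 1) axis (y axis), with circles for P2 samples, squares for P4 samples and a bar at the mean of the log2 values of each group. VMP23 and MLC-2 are higher in every P4 sample, while CPG43, neuropeptide-like 4C, lysozyme and LP are lower in every P4 sample.

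Genes of yolk and hemolymph proteins were lower at P4. These proteins are made mostly by the fat body, which lies around the ovary, and their RNA is also a marker of that tissue in a dissected ovary. Of 8 tested genes of the list, 6 fell, 0 rose and 2 did not pass, with a median relative log2 change of -2.35, against 4.71% of all genes falling. With equal medians 4 of the 8 were called lower, against 1.81% of all genes. With the 6 WT samples alone 3 of the 8 were, against 75 of all 4372 genes. In that limma fit the calls of LP-C19 (adjusted p = 0.054), LP-C12 (0.08) and SP2 (0.062) ended. VG, the yolk protein precursor vitellogenin, was 43.3, 47.3 and 98.0 at P2 and 2.06, 10.93 and 2.1 at P4. All P2 samples were above all P4 samples, with P2 replicate 3 the highest. The mean was 12.5-fold lower and the relative log2 change was -3.18 ± 0.54 (limma adjusted p = 0.0018).

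The 30 kDa lipoproteins are small hemolymph proteins that oocytes take up. LP (BGIBMGA004394) was 25.6, 76.0 and 35.1 at P2 and 1.59, 2.63 and 1.19 at P4, 25.2-fold lower with a relative log2 change of -3.49 ± 0.45 (limma adjusted p = 0.00026). LP-C19 went from 11.3, 37.2 and 8.05 to 0.34, 1.32 and 1.08 (adjusted p = 0.003, limma). LP-C12 went from 4.37, 16.2 and 3.81 to 0, 0.48 and 0.43 (limma adjusted p = 0.0083, and 0.092 with equal medians). In all 3 lipoprotein genes P2 replicate 2 was the highest sample and the stages did not overlap. A further 30 kDa family member, BGIBMGA004454, did not pass, with overlapping values of 232, 55.3 and 134 at P2 and 89.8, 149 and 105 at P4 (limma adjusted p = 0.92).

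The storage proteins are larval hemolymph proteins that serve as an amino acid reserve during metamorphosis. SP1 was 5.12, 18.58 and 6.58 at P2 and 0.12, 0.22 and 0.26 at P4 (50.5-fold lower, relative log2 change -2.57 ± 0.44, limma adjusted p = 0.0014). SP2 was 2.7, 1.78 and 2.51 at P2 and 0.12, 0 and 0.09 at P4 (limma adjusted p = 0.021, and 0.19 with equal medians). Both genes were low at P2 and near 0 at P4 in every sample. The 27 kDa glycoprotein gene (BGIBMGA000462) fell from 97.8, 353 and 129.7 to 13.6, 13.1 and 12.5 (14.8-fold lower, limma adjusted p = 0.00051).

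Both tested genes of the juvenile hormone and insulin list fell, against 4.71% of all genes, and 1 of them also did with equal medians. IGFLP, an insulin-like growth factor-like peptide that the silkworm fat body secretes during pupal development, was 2381, 6451 and 2424 at P2 and 314, 311 and 346 at P4. The P4 samples lay close together and far below each P2 sample. The mean was 11.6-fold lower and the relative log2 change was -2.92 ± 0.48 (limma adjusted p = 0.0012). HJHBP, which carries juvenile hormone in the hemolymph, was 4.71, 3.41 and 2 at P2 and 0, 0 and 0.47 at P4 (limma adjusted p = 0.027). The HJHBP call ended with equal medians (0.067) and without P2 replicate 1, P4 replicate 1 or P4 replicate 2 (up to 0.1). The 19 genes of the yolk and hemolymph list held 0.0686%, 0.0426% and 0.0664% of the listed total at P2 and 0.0172%, 0.0273% and 0.0188% at P4 (exact permutation p = 0.1). Fat body RNA in the dissected samples was not measured apart from these genes, and its part in their fall was not tested.

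Among named genes, the deepest falls were in cuticle and neuropeptide-like genes. CPG43, a glycine-rich cuticle protein, was 2257, 5001 and 1779.5 at P2 and 0, 15.94 and 3.85 at P4. It was among the abundant genes in every P2 sample and close to 0 in every P4 sample. The mean was 457-fold lower, with a relative log2 change of -8.84 ± 1.09 (limma adjusted p = 0.00032). All 7 tested genes of the neuropeptide-like 4 family, which encode small secreted peptides named after a neuropeptide precursor of the fruit fly, fell, and all 7 were also called with equal medians and in the 6 WT samples alone. The share of all genes that fell was 4.71%. Neuropeptide-like 4C was 117, 359 and 137 at P2 and listed at 0 in all P4 samples (limma adjusted p = 9.1e-07). BMORCPH27, whose product is given as neuropeptide-like 4A, went from 189, 821 and 280.2 to 0 in all P4 samples (limma adjusted p = 1.7e-05). NPLP4, given as form 4E, went from 66.4, 151 and 56.2 to 0 (limma adjusted p = 3.6e-06), and form 4F from 55.8, 108 and 53.6 to 0 (limma adjusted p = 1.9e-05).

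Of the 3 genes given as form 4B, BGIBMGA011763 kept a value in a P4 sample, with 125, 112 and 93.3 at P2 and 15.3, 0 and 0 at P4 (21.5-fold lower, limma adjusted p = 0.0034). The others, BGIBMGA011716 and BGIBMGA011715, were listed at 0 in all P4 samples (limma adjusted p = 7.3e-05 and 0.0012). The family's members resemble each other, so reads may be split between them and the value of a single member is uncertain. The summed share does not depend on such a split. The family held 0.126%, 0.25% and 0.141% of the listed total at P2 and 0.00275%, 0% and 0% at P4 (exact permutation p = 0.1). In these genes, as in CPG43, P2 replicate 2 was mostly the highest sample.

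Cuticle genes as a list went in both directions. Cuticle proteins bind chitin in the exoskeleton and in the lining of tracheae. Of 180 genes in the list, which includes CPG43 and BMORCPH27, 32 could be tested, of which 2 rose, 6 fell and 24 did not pass, with a median relative log2 change of -0.09, against 1.62% and 4.71% of all genes rising and falling. With equal medians 2 rose and 3 fell, against 2.49% and 1.81% of all genes, and the 3 were CPG43, BMORCPH27 and BMORCPH23. BMORCPR26 rose from 0.88, 2.8 and 0.51 to 10.87, 13.88 and 11.85 (8.74-fold, relative log2 change 3.02 ± 0.48, limma adjusted p = 0.008). BMORCPR32 rose from 3.75, 4.09 and 5.29 to 9.78, 15.3 and 21.42 (limma adjusted p = 0.033), a call that ended without P2 replicate 1, P4 replicate 2 or P4 replicate 3 (up to 0.14). BMORCPH23 fell from 9.18, 14.58 and 3.74 to 0 in all P4 samples (limma adjusted p = 0.0016).

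The most abundant cuticle gene was BGIBMGA005303. Its values were 3091, 10816 and 3011 at P2 and 4008, 2948 and 1691 at P4, which overlapped, and it did not pass (limma adjusted p = 0.33). The summed cuticle list made up 1.18%, 2.56% and 1.13% of the listed total at P2 and 0.75%, 0.514% and 0.313% at P4, without overlap (exact permutation p = 0.1). The part of tracheal or epidermal tissue in these values was not tested.

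Among 7 tested genes of antimicrobial proteins and immune recognition, 2 fell, 1 rose and 4 did not pass (median relative log2 change -0.82), and the same counts were found with equal medians. Over all genes 4.71% fell and 1.62% rose. Lysozyme (BGIBMGA010439), which cleaves bacterial cell walls, was 160.1, 132 and 66.6 at P2 and 3.17, 0.75 and 0.32 at P4. Every P4 sample was far below every P2 sample. The mean was 84.5-fold lower, with a relative log2 change of -5.29 ± 0.46 (limma adjusted p = 1.7e-05). CECD, the antimicrobial peptide cecropin D, went from 14.2, 18.8 and 28.7 to 0 in all P4 samples (limma adjusted p = 0.00032). Cecropin genes resemble each other, so its reads may be shared with relatives. BMPP, the precursor of paralytic peptide, an insect cytokine, fell from 19.8, 35.1 and 21.7 to 2.2, 0.16 and 0.07 (31.5-fold lower, limma adjusted p = 0.00032).

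A galectin, a lectin that binds galactosides, moved the other way. It stood at 10.4, 10.6 and 13.7 at P2 and at 60.0, 69.9 and 59.6 at P4, with tight groups and no overlap. The mean was 5.45-fold higher and the relative log2 change was 2.80 ± 0.42 (limma adjusted p = 0.0065). The recognition protein PGRP-S1 did not pass, with 406, 727 and 516 at P2 and 397, 218 and 169.8 at P4 (limma adjusted p = 0.11). PRO-PO2, a prophenoloxidase subunit made by hemocytes, was 26.1, 23.2 and 54.9 at P2 and 44.5, 40.2 and 44.6 at P4 and overlapped (limma adjusted p = 0.43), and PPO1, the other subunit, was listed at 0 in all WT samples. Of 6 tested proteases and inhibitors, 1 fell and 0 rose, against 4.71% and 1.62% of all genes. The Kazal-type inhibitor of serine proteinases BGIBMGA011573 fell from 305, 289.8 and 65.9 to 19.1, 11.9 and 2.55 (19.7-fold lower, relative log2 change -3.77 ± 0.65, limma adjusted p = 0.0021).

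Muscle genes were higher at P4. The ovariole sheath and the oviduct contain muscle. Both tested genes of the muscle list rose, and both also did with equal medians, against 1.62% of all genes. MLC-2, the myosin regulatory light chain, was 103, 291 and 173 at P2 and 663, 791 and 622 at P4. The P4 samples were close together and above all P2 samples. The mean was 3.66-fold higher, with a relative log2 change of 2.43 ± 0.34 (limma adjusted p = 0.0047, and 0.035 with equal medians). A1, a muscle-type actin, was 248, 348 and 553 at P2 and 884, 1283 and 851 at P4 (2.63-fold, relative log2 change 1.89 ± 0.30, limma adjusted p = 0.018), and its call ended without P2 replicate 1 or P4 replicate 2 (up to 0.09). Muscular protein 20, a muscle protein outside that list, went from 8.71, 17.58 and 25.71 to 45.95, 63.86 and 36.91 (2.82-fold, limma adjusted p = 0.048). This call ended with equal medians (0.084) and without P2 replicate 1 or any P4 sample (up to 0.16).

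The muscle list took up 0.0725%, 0.0962% and 0.155% of the listed total at P2 and 0.278%, 0.342% and 0.248% at P4 (exact permutation p = 0.1). Among its defining markers, tropomyosin-1 was listed at 0 in all samples and troponin C 25D stayed at or below 0.95. Over all genes 1.62% rose, 4.71% fell and 1099 of 4372 were at an unadjusted p under 0.05 (limma). Of 7 tested genes of the general cytoskeleton, 0 passed in either direction, with 2 at an unadjusted p under 0.05. Tubulin TUA1, the most abundant of them, was 6962, 13352 and 14918 at P2 and 10564, 10101 and 11092 at P4 and overlapped (limma adjusted p = 0.88). SPARC, a collagen-binding protein of the basement membrane, was lower in every P4 sample, with 589.9, 577 and 546 at P2 and 308, 196 and 270.5 at P4 (2.21-fold lower, limma adjusted p = 0.043). Its call ended with equal medians (0.37) and when any of the 6 WT samples was left out (up to 0.16).

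ALP-M, a membrane-bound alkaline phosphatase, had the largest fold rise after VMP23 among named genes with values at both stages. It was 0.37, 0.23 and 0.61 at P2 and 6.38, 11.46 and 5.58 at P4. The gene was near 0 in every P2 sample and low but clearly present in every P4 sample. The mean was 19.4-fold higher, with a relative log2 change of 3.05 ± 0.31 (limma adjusted p = 0.00034). AE13, a carboxylesterase, moved the other way, from 7.99, 5.18 and 5.11 to 0.61, 0.41 and 0.38 (13.1-fold lower, limma adjusted p = 0.0038). In the list of redox and detoxification genes that includes AE13, 2 of 19 fell and 0 rose, and with equal medians 1 fell and 2 rose. The shares over all genes were 4.71% and 1.62%, and with equal medians 1.81% and 2.49%. GSTD3, a glutathione transferase, was the other fall, from 11.9, 15.8 and 10.2 to 7.59, 3.88 and 1.79 (limma adjusted p = 0.036). That call ended with equal medians (0.28) and without P2 replicate 1 or 2 or P4 replicate 2 or 3 (up to 0.11).

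Ecdysone, the steroid hormone of metamorphosis, drives ovarian development in the silkworm pupa. None of the 4 tested genes of the ecdysone list passed, and 0 were at an unadjusted p under 0.05 in the limma fit. In that fit 1.62% of all genes rose and 4.71% fell, and 1099 of 4372 were at an unadjusted p under 0.05. DIB, an enzyme of ecdysone synthesis, was 6.18, 3.94 and 4.23 at P2 and 6.94, 9.96 and 11.89 at P4, without overlap (limma adjusted p = 0.25, and 0.045 with equal medians). The ecdysteroid-regulated 16 kDa protein gene (BGIBMGA008405) was 255, 118 and 147 at P2 and 199, 215 and 188 at P4 and overlapped (adjusted p = 0.53, and 0.046 with equal medians). With equal medians, then, 2 of the 4 genes were called higher, against 2.49% of all genes. CYP306A1, another enzyme of the pathway, had a limma adjusted p of 0.86.

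Of 9 tested transcription factor genes, 3 fell and 0 rose, against 4.71% and 1.62% of all genes, but with equal medians 0 passed. E(SPL)MBETA, related to the repressors that Notch signalling activates in the fruit fly, went from 23.9, 42.4 and 52.5 to 14.8, 7.87 and 9.33 (3.72-fold lower, limma adjusted p = 0.019, and 0.25 with equal medians). SGF3, a POU-domain factor named for the silk gland, went from 12.2, 9.57 and 9.59 to 3.75, 2.77 and 3.24 (3.21-fold lower, limma adjusted p = 0.021, and 0.086 with equal medians). MBF1, a coactivator that links DNA-bound factors to the TATA-binding protein, went from 283, 196 and 237 to 101, 111 and 105 (limma adjusted p = 0.04, and 0.12 with equal medians). In all 3 genes each P4 sample was below each P2 sample. The call of E(SPL)MBETA ended without P4 replicate 2 or 3 (up to 0.091), that of SGF3 without P2 replicate 1 or any P4 sample (up to 0.096), and that of MBF1 without P2 replicate 1 or 3 or any P4 sample (up to 0.13).

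Ribosomal proteins, the structural proteins of the ribosome, held a large share of the listed total, given below. Of 44 tested genes, 39 lay above the median change of all genes, and their median relative log2 change was 0.70. The 93 genes with a mean of at least 1000, of any function, had a median relative log2 change of 0.59. These 93 include ribosomal protein genes themselves, so the medians are not independent. Under the limma test, 4 of the 44 ribosomal protein genes were at an unadjusted p under 0.05, against 1099 of all 4372 genes. Past the threshold, 0 of the 44 rose and 1 fell, against 1.62% and 4.71% of all genes. That gene was UBI1, a fusion of ubiquitin with ribosomal protein L40, with 2045, 1816 and 1792 at P2 and 824, 858 and 674 at P4. The groups were tight and did not overlap (2.40-fold lower, relative log2 change -0.82 ± 0.18, limma adjusted p = 0.0014), but with equal medians the adjusted p was 0.15. Ribosomal protein genes together held 22.9%, 37.7% and 27.7% of the listed total at P2 and 33.7%, 34.1% and 36.3% at P4, and overlapped (exact permutation p = 0.4). P2 replicate 2 held the largest share. Without that sample 11 of the 44 genes were called higher, against 102 of all 4372 genes.

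Translation factors load messenger RNA onto ribosomes and move tRNA. Of 26 tested genes of translation, 6 fell, 0 rose and 20 did not pass, against 4.71% of all genes falling, and 9 lay above and 17 below the median change of all genes (median relative log2 change -0.31). With equal medians 2 fell, against 1.81% of all genes. Without P2 replicate 1 or with the 6 WT samples alone 0 did, against 112 and 75 of all 4372 genes. The cap-binding factor eIF4E-1 (BGIBMGA012675) went from 12.1, 9.88 and 6.53 to 1.27, 3.63 and 0.68 (5.11-fold lower, limma adjusted p = 0.019). EIF4AIII, a helicase of the exon junction complex, went from 135, 101 and 89.0 to 42.6, 55.1 and 45.5 (2.27-fold lower, limma adjusted p = 0.029). The eIF3 subunit of BGIBMGA004175 went from 281, 132 and 228 to 74.3, 73.5 and 74.6 (limma adjusted p = 0.037), and was also called with equal medians (0.016). The stages did not overlap in any of these 3 genes. The eIF4E-1 call ended with equal medians (0.057) and without P2 replicate 1, P4 replicate 1 or P4 replicate 3 (up to 0.087), and that of EIF4AIII with equal medians (0.1) and without P2 replicate 1 or any P4 sample (up to 0.1). Subunit K of eIF3 (BGIBMGA010671) fell too, from 296, 255 and 204 to 108, 128 and 112 (limma adjusted p = 0.029). Its call ended with equal medians (0.19) and without P2 replicate 1 or any P4 sample (up to 0.1).

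**Figure D4:**
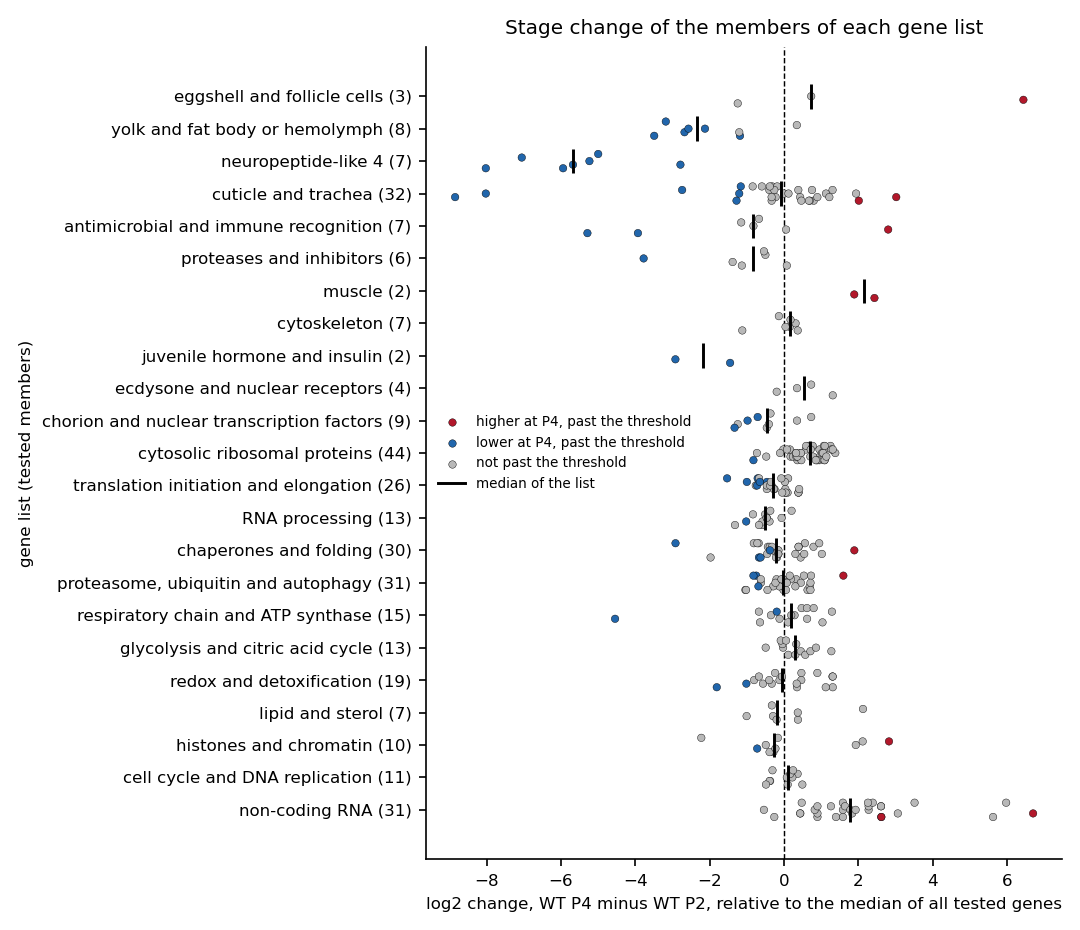
Relative log2 change between P4 and P2 in WT of the tested members of the gene lists, 1 point per gene on the x axis and 1 list per line, with called genes coloured, list medians marked and a vertical line at 0, the median of all 4372 genes. All 7 neuropeptide-like 4 genes lie far to the left, both muscle genes to the right, and 39 of the 44 ribosomal protein genes to the right of the line by small amounts.

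Of 30 tested chaperone genes, 1 rose and 4 fell, against 1.62% and 4.71% of all genes, with a median relative log2 change of -0.20, and with equal medians 0 rose and 1 fell. Small heat shock proteins, which bind unfolded proteins and are abundant in this ovary, went opposite ways. HSP25.4 (BGIBMGA005781) went from 350.0, 807 and 304 to 47.0, 45.0 and 35.1, with every P4 sample far below every P2 sample. The mean was 11.5-fold lower, with a relative log2 change of -2.92 ± 0.36 (limma adjusted p = 0.00019). HSP20.4 rose from 2249, 4626 and 1732 to 5827, 7214 and 8669 (2.52-fold, relative log2 change 1.89 ± 0.33, limma adjusted p = 0.028), and its call ended with equal medians (0.091) and without P2 replicate 1, P2 replicate 3, P4 replicate 2 or P4 replicate 3 (up to 0.11). HSP19.9 was 5435, 10179.5 and 6105 at P2 and 8917, 10204 and 12198 at P4, overlapped and did not pass (limma adjusted p = 0.21). Together 4 small heat shock protein genes made up 1.84%, 2.44% and 1.85% of the listed total at P2 and 2.72%, 2.94% and 3.58% at P4 (exact permutation p = 0.1).

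Folding enzymes and genes of protein turnover gave further calls. FKBP12, a prolyl isomerase, went from 629, 451 and 457 to 287, 221 and 198 (2.18-fold lower, limma adjusted p = 0.0066, and 0.25 with equal medians). In the list of proteasome, ubiquitin and autophagy genes, 3 of 31 fell and 1 rose, against 4.71% and 1.62% of all genes, and with equal medians 1 fell and 1 rose. ATG8, which is attached to autophagosome membranes, went from 676, 492 and 408 to 233, 243 and 225 (2.25-fold lower, limma adjusted p = 0.022). Its call ended with equal medians (0.14) and without P2 replicate 1 or any P4 sample (up to 0.079). The rise was that of a deubiquitinating enzyme (BGIBMGA013218), from 0.48, 0.14 and 1 to 2.37, 2.28 and 2.34 (limma adjusted p = 0.037), which ended without P2 replicate 1 or any P4 sample (up to 0.11). The list's share of the total was 2.2%, 1.53% and 1.67% at P2 and 1.14%, 1.14% and 1.18% at P4, without overlap (exact permutation p = 0.1). The signal sequence receptor (BGIBMGA011599), which sits beside the channel for secreted proteins in the endoplasmic reticulum, rose from 206, 303 and 308 to 445, 595 and 539.5 (limma adjusted p = 0.047). That call ended with equal medians (0.13) and without P2 replicate 1 or any P4 sample (up to 0.16).

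In mitochondria, 2 of 15 respiratory chain and ATP synthase genes fell and 0 rose, with a median relative log2 change of 0.19, and with equal medians 1 fell. Of all genes 4.71% fell, and 1.81% with equal medians. Cytochrome b-c1 complex subunit 6 (BGIBMGA012857) was 57.9, 9.49 and 50.7 at P2 and listed at 0 in all P4 samples (limma adjusted p = 0.018), a call that ended without P2 replicate 1 or any P4 sample (up to 0.071). ATP synthase subunit d (BGIBMGA011936) was 1479, 1577 and 1446 at P2 and 1016, 936 and 935 at P4, tight groups with a 1.56-fold lower mean (limma adjusted p = 0.028). With equal medians its adjusted p was 0.84, and the call also ended without P2 replicate 1 or any P4 sample (up to 0.11). Both tested genes of mitochondrial protein import fell, against 4.71% of all genes, and 1 of them also did with equal medians. TIM10, a chaperone of the intermembrane space, went from 124, 38.8 and 71.6 to 4.52, 18.85 and 16.26 (5.93-fold lower, limma adjusted p = 0.029, and 0.02 with equal medians), but the call ended without P2 replicate 1, P4 replicate 1 or P4 replicate 3 (up to 0.11). TIM8b (BGIBMGA014607), of the same space, went from 542, 301 and 319 to 124, 209 and 159 (limma adjusted p = 0.038), and ended with equal medians (0.092) and without P2 replicate 1 or any P4 sample (up to 0.13).

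In the limma test, 0 of 11 tested genes of the cell cycle and DNA replication passed, with 4 at an unadjusted p under 0.05. The same test called 1.62% of all genes higher and 4.71% lower, with 1099 of 4372 at an unadjusted p under 0.05. PCNA, the sliding clamp of DNA polymerase, was 229, 367 and 325 at P2 and 249, 223 and 310.1 at P4 and overlapped (limma adjusted p = 0.58). VIG, a gene named after its place within vasa, was the only tested gene of the germ line and small RNA list, with 2251, 1883 and 2241 at P2 and 2085, 1583 and 1861 at P4 (limma adjusted p = 0.51). Of 10 tested histone and chromatin genes, 1 rose and 1 fell (1 and 0 with equal medians), against 1.62% and 4.71% of all genes. Histone H2A (BGIBMGA009649) went from 45.7, 24.6 and 24.0 to 126, 176 and 186, with all P4 samples above all P2 samples (5.17-fold higher, relative log2 change 2.82 ± 0.26, limma adjusted p = 0.0002). Histone H3 (BGIBMGA005550) went the other way, from 1598, 1232 and 959 to 639, 551 and 473 (2.28-fold lower, limma adjusted p = 0.013), a call that ended with equal medians (0.2) and without P4 replicate 2 or 3 (up to 0.067). Histones have many near-identical copies, so reads may be split between them.

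Of 1122 listed non-coding RNA genes, 31 could be tested, of which 2 rose and 0 fell, against 1.62% and 4.71% of all genes. The change of 29 of the 31 lay above the median change of all genes, with a median relative log2 change of 1.78. Without P2 replicate 2, 10 of the 31 were called higher, and without P2 replicate 1, 1 was. The same settings called 102 and 57 of all 4372 genes higher. U3 (ENSRNA022711416), which guides the processing of ribosomal RNA, went from 61.4, 151 and 110.0 to 231, 638 and 650.1 (4.71-fold higher, limma adjusted p = 0.013), a call that ended without P2 replicate 1, P4 replicate 2 or P4 replicate 3 (up to 0.073). UTP11-like (BGIBMGA013703), a protein of the same processing complex, was lower instead, from 63.3, 47.4 and 46.8 to 14.1, 21.4 and 20 (2.84-fold, limma adjusted p = 0.039), and its call ended with equal medians (0.05) and without P2 replicate 1 or any P4 sample (up to 0.13). A copy of U1 (ENSRNA022710950), the RNA that recognises the start of introns, was listed at 0 in all P2 samples and at 201, 109 and 19.05 at P4 (limma adjusted p = 0.0084). U1 and U3 are multicopy genes whose reads may be split between copies. The samples were total RNA, and no label says how ribosomal RNA was removed. Non-coding genes held 2.07%, 3.63% and 2.14% of the listed total at P2 and 4.45%, 2.98% and 2.77% at P4 and overlapped (exact permutation p = 0.4).

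The remaining lists are short, and with 1.62% of all genes rising and 4.71% falling, 0 or 1 calls in them are close to the share over all genes. Of 13 tested RNA processing genes, 1 fell (UTP11-like) and 12 lay below the median change of all genes (median relative log2 change -0.51), but with equal medians 0 fell. Glycolysis and citric acid cycle genes gave 0 calls among 13 tested in the limma fit, with 1 at an unadjusted p under 0.05. BMGAPDH, a glycolytic enzyme, was 1380.1, 1908 and 1113 at P2 and 1277, 1357 and 1265 at P4 and overlapped (limma adjusted p = 0.69). Lipid and sterol genes gave 0 calls among 7 (2 at an unadjusted p under 0.05) and the vacuolar proton pump 0 among 4 (1 at an unadjusted p under 0.05). The lists of the nervous system, odorant and pheromone binding, and channels and transporters had 3 tested genes each, with 0 calls and 0 at an unadjusted p under 0.05. The channel protein INX2, an innexin that forms gap junctions, was 573, 946 and 1173 at P2 and 892, 771 and 962 at P4 and overlapped (limma adjusted p = 0.97). Of 4 tested genes of the silk gland list SGF3 was the 1 that fell, and the protease BCP, given as fibroinase, had overlapping values of 325, 142 and 122 at P2 and 199.6, 166 and 281 at P4 (limma adjusted p = 0.7).

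The stage change was then measured in TBH ovaries, whose means share no sample with the WT means. Both changes were tested in the same fit of all 12 samples, with a shared estimate of the spread. Calls in the lines are therefore not independent of each other. There, 17 genes rose (0.389%) and 67 fell (1.53%) among the same 4372 genes, with a median log2 change of -0.23. Of the 84 genes called in TBH, 67 were called in the same direction in WT, which is 79.8% of the TBH calls and 24.2% of the WT calls. The 4372 genes were selected by their WT values, so a gene present only in TBH could not be among the 84. The same filter applied to the TBH samples would pass 4437 genes. Of the 206 genes that fell in WT, 192 had a lower mean in TBH at P4 and 55 passed there. Relative to the median change of all genes in TBH, 181 of the 206 were lower. Of the 71 that rose, 48 had a higher mean and 61 had a change above that median. Of these 71, 12 passed, while 1 was called lower. Their median relative log2 change was 2.46 in WT and 0.85 in TBH, and that of the falls -1.23 and -0.69. Since these genes were chosen by their change in WT, a smaller change in TBH is not by itself a difference between the lines. The log2 changes of the lines correlated across genes with a Pearson r of 0.517, a description over genes that share their libraries.

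VMP23 also rose in TBH, with 3.16, 6.53 and 4.92 at P2 and 504, 401 and 442 at P4 (limma adjusted p = 9.7e-07). BGIBMGA004157 went there from 796, 1058 and 1155 to 58466, 31456 and 48414 (limma adjusted p = 4.9e-06). The 7 neuropeptide-like 4 genes all fell in TBH too, and CPG43 went from 2754, 2136 and 2305 to 0, 21.7 and 5.92 (limma adjusted p = 0.00079). IGFLP went from 1722, 1531 and 782 to 143, 124 and 47.8 (limma adjusted p = 0.00099). VG was low in TBH at both stages, with 5.22, 4.5 and 2.92 at P2 and 1.91, 3.53 and 3.36 at P4 (limma adjusted p = 0.85). For VG the difference between the WT and the TBH change did not pass (limma adjusted p = 0.19), nor did it for the galectin (0.42), whose TBH values of 14.7, 14.01 and 5.34 at P2 and 17.3, 19.3 and 6.97 at P4 overlapped. The muscle genes had the same direction in TBH, where 0 of 2 passed. MLC-2 was 181, 214 and 176 at P2 and 412, 298 and 217 at P4 there (limma adjusted p = 0.53).

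**Figure D5:**
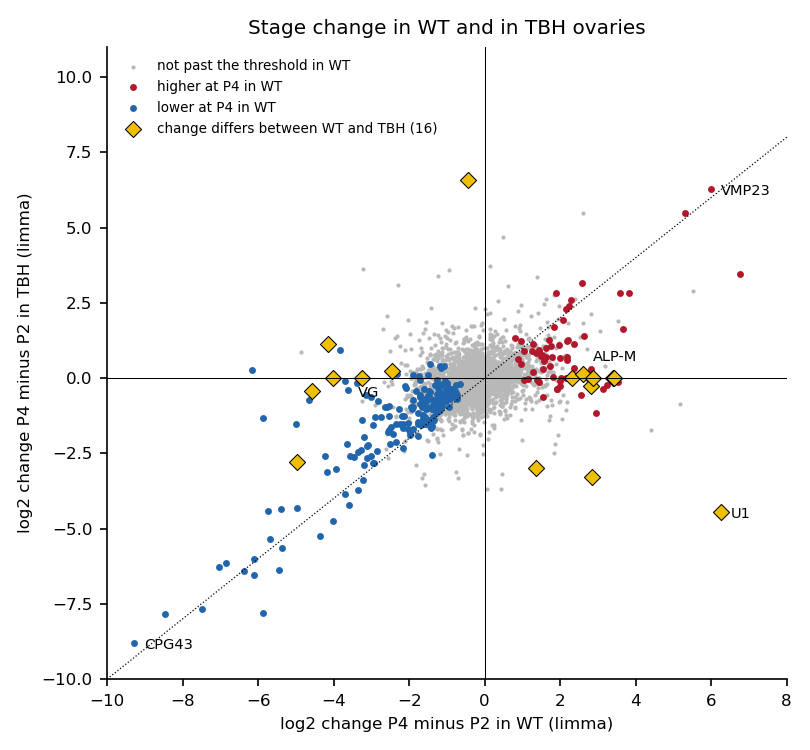
Log2 change between P4 and P2 in TBH (y axis) against that in WT (x axis), 1 point per gene for the 4372 genes, with genes called in WT and the 16 genes whose change differed between the lines in their own colours. VMP23 lies high and CPG43 low in both lines, and U1 and ALP-M lie away from the dotted diagonal of equal change.

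A test of the difference between the WT and the TBH change called 16 genes (0.366%), with 220 at an unadjusted p under 0.05. The WT change was the higher in 9 and the lower in 7 of them. Genes entered this test through their values in WT alone, so a gene present in only a single WT group could enter and a gene present only in TBH could not. An informative name was available for 2. ALP-M, which rose in WT as given above, was 0.07, 0.04 and 0.25 at P2 and 0.12, 0.33 and 0.24 at P4 in TBH (limma adjusted p = 0.039 for the difference). The U1 copy was 27.8, 123 and 70.6 at P2 and 0, 0 and 24.1 at P4 in TBH, opposite to WT (limma adjusted p = 0.016 for the difference). The count of 9 became 16 without P2 replicate 1. The count of 7 became 2 and that of 9 became 1 when genes with a mean of at least 10 were tested.

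The 14 unnamed genes among them included genes at 0 in a whole group. The following 4 were chosen after their values were seen. BGIBMGA008709 was at 0 in all WT P2 samples and at 7.32, 4.51 and 7.18 in WT P4, while in TBH it went from 37.1, 40.04 and 29.1 to 4.06, 1.78 and 2.64 (limma adjusted p = 0.00026 for the difference). BGIBMGA001698 was at 0 in WT P2, at 9.82, 11.09 and 8.56 in WT P4 and at 0 in all 6 TBH samples (0.0012). In the other direction, BGIBMGA003964 went from 8.52, 22.86 and 23.46 to 0 in WT and from 15.3, 19.8 and 36.9 to 56.2, 49.8 and 46.1 in TBH (0.002). BGIBMGA003132 went from 22.5, 16.9 and 9.23 to 0 in WT and was at 0 in all TBH samples (0.002).

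Some genes were listed at 0 in all samples of 1 stage. In WT, 23 genes had at least 1 in every P2 sample and 0 in every P4 sample, and 9 of them had an informative name. Conversely, 15 genes were at 0 in every P2 sample and at least 1 in every P4 sample, and 1, the U1 copy, had a name. These genes were picked for this pattern and passed the filter through the stage where they are high, so the counts are a description. The same pattern held in TBH for 7 of the 23 and for 2 of the 15. BGIBMGA002626 was the unnamed gene with the deepest fall, from 202, 174 and 62.5 to 0 in all P4 samples (limma adjusted p = 1e-05), and in TBH it went from 179.9, 58.1 and 55.5 to 0, 0 and 0.29. BGIBMGA010977 fell from 105, 252 and 77.7 to 0, 0.19 and 0.17 (1208-fold lower, relative log2 change -6.40 ± 0.43, limma adjusted p = 3.6e-06). Both unnamed genes fell past the threshold in TBH as well (limma adjusted p = 3.8e-05 and 8.9e-06).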

How the data were processed

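RNA-seq of total ovary RNA on an Illumina NovaSeq instrument gave 1 table with 12 sample columns, per the labels' protocols. Values in the deposited table are a normalized signal, and neither file nor labels name its unit. Cufflinks and DESeq2 are named, without versions or roles, per the submitters' processing notes (aligner, genome build and counting method not given in the sources used here). Depth is unknown. The 4 deposited group-mean columns equalled the means of their samples within rounding (largest difference 3.3e-06).

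The plan named a count test in case the table held counts; since it does not, limma 3.58.1 in R 4.3.3 was used. Values were taken as log2(value + 1), which understates changes of low genes. All 12 samples entered a linear model with a mean for each group (eBayes with trend), for genes with at least 1 in at least 3 of the 6 WT samples, with Benjamini-Hochberg adjustment over all 4372 genes and a threshold of 0.05. The fit was also run on simulated data, drawn around the WT P2 means with independent noise. The simulation had no shift of all genes and no sample apart from its group, unlike the data here. It therefore cannot show how the fit behaves on these data, and no result is drawn from it. Shares of the listed total were tested by exact permutation of the samples (two-sided), adjusted over 14 shares (each p of 0.1 became 0.156). Alternatives are given in the closing section. Figures and tables used Python 3.11.15 with pandas 2.3.3, numpy 2.4.6 and matplotlib 3.10.9.

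Of 33 gene lists, matched by name and product in the table, 32 had tested members. The comparison and the lists were chosen with earlier results of these data known, and wrongly matched genes were removed from the lists after values were seen. Named are the 15 largest rises and falls past the threshold with a name, a mean of at least 1 and no overlap, the 3 members per list with the smallest p (of a list with none, the most abundant), the 3 most abundant members of other-tissue lists, 2 unnamed genes per direction and named genes that differed between the lines. This rule gives 74 genes, of which some are left out of the text. Among those left out, the calls of a chaperonin subunit (BGIBMGA013116) and a ubiquitin hydrolase (BGIBMGA002640) ended with equal medians (limma adjusted p = 0.45 and 0.17). Genes given with values outside this rule are list members chosen after their values were seen. Of the reference name table, 0 gene model IDs matched.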

Additional observations from a re-analysis of the deposited data

Results flagged for a closer look

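The stage change differed between WT and TBH past the threshold for 16 genes, by a limma test of the difference itself, and 2 of them have an informative name. The U1 copy ENSRNA022710950 was listed at 0 in all WT P2 and at 19.05 to 201 in WT P4 samples, and moved the other way in TBH (adjusted p of the difference 0.016). U1 is a multicopy gene whose reads may be split between copies. The alkaline phosphatase gene ALP-M (BGIBMGA008818) was above 5 in each WT P4 sample and below 1 in all other samples (adjusted p of the difference 0.039). With 3 samples per group, no test for a sample far from its group was made.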

How the results depend on the processing

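Counts of genes that rose and fell in WT (71 and 206) became 33 and 75 with only the 6 WT samples, 129 and 109 with quantile normalization, 109 and 79 with equal medians, 47 and 110 without a filter, and 110 and 411 with sample weights. With a mean of at least 10, 39 rose. Leaving out 1 WT sample gave 36 to 102 rises and 96 to 477 falls, leaving out P2 replicates 1 and 2 gave 82 and 117, and without TBH P4 replicate 3, 344 fell. Equal medians with only the 6 WT samples, chosen after seeing the data, gave 41 and 32. Of genes differing between the lines, the 9 with a higher WT change became 5 with a pseudocount of 0.1. They became 1 with a mean of at least 10, 17 with sample weights and 5 to 16 when 1 sample was left out. The 7 with a lower change became 2 with a mean of at least 10 and 19 with sample weights (6 to 10 with 1 sample left out). The cause of these moves was not tested. Deviations of same-numbered WT P2 and P4 samples from their group means had correlations of 0.043, 0.020 and -0.071. Those of different numbers lay between -0.089 and 0.071. With 3 samples per group, these values cannot show whether the numbers pair the samples. With a replicate block, 52 rose and 121 fell over 12 samples, and 29 and 59 over the 6 WT samples. With ribosomal protein genes left out of the total, the change in share (percentage points) went from 0.129 to 0.198 for eggshell genes, 0.181 to 0.288 for muscle, -0.171 to -0.252 for neuropeptide-like 4, 0.0505 to 0.606 for chaperones, 1.04 to 1.78 for small heat shock proteins and 8.90 to 13.6 for BGIBMGA004157. Of the 57 named genes past the threshold, 14 kept their call in all 21 alternatives, 18 lost it in 1 to 5 and 25 in more than 5, and none reversed. Among the 21 is the fit without P2 replicates 1 and 2, which left only P2 replicate 3 in its group. Of the 57, 25 lost their call when 1 WT sample was left out, 24 with only the 6 WT samples and 21 with equal medians. Depth is unknown, so precision rests on the spread of 3 samples per group, and small changes such as that of ATP synthase subunit d lie close to the shift of all genes.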
